A study of Mus musculus with 6 samples.

Results

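Parp9, Parp10, Parp12, Parp14 and Dtx3l are the interferon-linked genes of ADP-ribosylation examined here: 4 members of the PARP family and the Deltex ubiquitin ligase that partners Parp9. They were taken by symbol from a deposited table of 15487 genes, and all 5 members were found. The table covers macrophages sorted by flow cytometry from CT26 tumours on day 15. CT26 is a mouse colon carcinoma line, and the macrophages are labelled wild type on the BALB/C background in both groups. The tumour cells were implanted in 2 forms, labelled Sg-Con and Sg-C3 and read here as carrying a control guide RNA or a guide RNA against complement C3, with 3 libraries of each. The labels do not say whether the tumour cells were 1 clone or whether each library came from its own animal, so the p-values reflect variation among the libraries alone, and this could be technical. The guide targets the tumour cells, so C3 RNA of the sorted cells does not check the labels.

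PARP enzymes take ADP-ribose from NAD and attach it to proteins, either as single units or as chains. Parp9 carries macrodomains, which bind ADP-ribose, and forms a complex with Dtx3l, a RING-type E3 ubiquitin ligase. Parp14 has macrodomains as well and adds single units, and it was first described as a cofactor of Stat6, the transcription factor of interleukin signalling in alternatively activated macrophages. Parp10 and Parp12 also add single units: Parp10 was found as a partner of Myc, and Parp12 carries CCCH zinc fingers and is known for restricting viruses. Interferons signal through receptor chains, JAK kinases and factors such as Stat2 and Irf9, which act at the ISRE and GAS elements of target promoters, and the 5 genes are commonly listed among those targets.

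In the RefSeq order of genes, Parp14, Dtx3l and Parp9 are adjacent protein-coding genes on chromosome 16, and Parp10 and Parp12 lie on chromosomes 15 and 6. Dtx3l and Parp9 are transcribed in opposite directions from overlapping starts, so reads of the overlap could have been given to either gene unless strand was used, and the sources used here do not give this. RefSeq promoter windows (250 bases before and 50 after a start, GRCm38.p6) were at hand for 2 of the 5 members, Parp12 and Dtx3l, and none is given for Parp9, Parp10 or Parp14. The windows were searched on both strands for the letters GAAA, any 2 bases, GAAA (ISRE) and TTC, any 3 bases, GAA (GAS), and neither was found in either window. Over all 32851 windows of the table, 3.44% held the first and 8.3% the second. Among 20 type I interferon target genes with a window, 11 held the ISRE letters and 5 the GAS letters, and among 14 interferon gamma targets 8 and 5 did. These counts are per gene, with a match in any window of the gene, while the shares over all windows are per window. All are matches of letters in short windows, not binding sites. The bases before the start of Parp12 (chr6:39118350-39118599, minus strand) and the part of the Dtx3l window outside annotated exons of Dtx3l and Parp9 (chr16:35939207-35939277, minus strand) are printed to show the 2 windows, and 30 bases each of Isg15 (chr4:156200871-156200900, minus strand) and Irf1 (chr11:53769914-53769943, plus strand) show what matches look like. Capitals mark 3 overlapping ISRE matches in Isg15 and 1 GAS match in Irf1.
Parp12: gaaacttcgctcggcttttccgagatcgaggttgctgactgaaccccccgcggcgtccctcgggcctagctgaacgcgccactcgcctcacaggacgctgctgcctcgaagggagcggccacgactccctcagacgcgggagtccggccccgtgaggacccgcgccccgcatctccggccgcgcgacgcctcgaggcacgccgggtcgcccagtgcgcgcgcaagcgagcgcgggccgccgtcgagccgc
Dtx3l: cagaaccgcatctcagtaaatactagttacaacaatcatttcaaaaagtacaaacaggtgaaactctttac
Isg15: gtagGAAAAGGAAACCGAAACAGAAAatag
Irf1: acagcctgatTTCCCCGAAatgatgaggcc

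The values are FPKM, reads scaled to gene length and to the mapped reads of the library, so levels can be compared between genes. They summed to between 474579 and 487358 per library, and the smallest steps in the values imply 17.8 to 19.4 megareads mapped. Over log2 values, Pearson r was 0.986 to 0.99 between libraries of a group and 0.945 to 0.974 between groups, and no libraries were identical. The summed FPKM of 10 macrophage markers was 15000 to 16700 in Sg-Con and 9180 to 11400 in Sg-C3. Lyz2, the most abundant of them, stood at 7710 ± 915 and 3380 ± 579 FPKM, and Adgre1, which codes for F4/80, at 173 ± 11.6 and 172 ± 29.8 FPKM (SD, n = 3). Of these 10 markers 4 were lower and 0 higher by the test used below, which called 31.7% of all tested genes lower and 12.7% higher. The summed FPKM of 7 neutrophil markers was 139 to 220 in Sg-Con and 386 to 1320 in Sg-C3, that of 8 NK and cytotoxic markers 1.52 to 4.15 and 31.2 to 38.4, and that of 9 dendritic cell markers 21.7 to 52.5 and 223 to 274. Of the tested markers, 4 of 6, 5 of 5 and 3 of 4 in these lists were higher. In Sg-C3 most of the neutrophil sum was S100a8 and S100a9, and most of the dendritic cell sum was Itgax. T cell markers (7) summed to 2.29 to 5.79 and 14.6 to 22.1, B cell markers (5) to 1.76 to 4.62 and 4.72 to 6.91, and carcinoma markers (5) to 15.2 to 29.5 and 2.24 to 3.03, with 2 of 2 tested higher, 0 of 1 called and 2 of 2 lower. The called T cell genes were Cd4, most of that sum in Sg-C3, and Cd3g, while Cd3e stood at 1.19 ± 0.892 and 1.07 ± 0.446 FPKM (SD, n = 3). Krt8 made up most of the carcinoma sum in Sg-Con. Fibroblast markers (8) summed to 65.4 to 91.5 and 141 to 204, with 3 higher, led by Dcn, and 2 lower of 7 tested. Endothelial markers (4) summed to 9.37 to 17.7 and 59.7 to 78.7, most of it Pecam1 in Sg-C3, with 1 higher (Pecam1) and 1 lower (Cdh5) of 3 tested. In sorted bulk samples, more cells of a type and more RNA per cell cannot be told apart, and the part of these cells in the results below was not tested.

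Parp14, Parp9, Dtx3l and Parp10 were higher in the macrophage samples of Sg-C3 tumours than in those of Sg-Con tumours, by 2.88-fold, 2.23-fold, 2.23-fold and 1.93-fold in mean FPKM. Parp12 did not pass the test, at 1.21-fold. A gene is called higher or lower where limma's Benjamini-Hochberg adjusted p over all 11198 tested genes is below 0.05, and each log2 fold change is the Sg-C3 mean minus the Sg-Con mean of log2(FPKM + 1). By this rule 4 of the 5 members were higher and 0 lower, and all 5 passed the filter on low values, where 12.7% of all tested genes were called higher and 31.7% lower. The median log2 fold change of the 5 members was 1.04 beside -0.16 for all tested genes. That last shift was -0.02 after median-ratio scaling, where the share of calls that were lower was 50.5% and not 71.5%.

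Parp14, the macrodomain enzyme and Stat6 cofactor, was the most abundant of the 5 in every library. It stood at 28.08, 24.4 and 37.79 FPKM in Sg-Con replicates 1, 2 and 3 and at 106.47, 96.97 and 56.63 FPKM in Sg-C3 replicates 1, 2 and 3. The groups did not overlap, but Sg-C3 replicate 3 lay nearer to the highest Sg-Con library than to the other Sg-C3 libraries. Mean levels were 30.1 ± 6.92 and 86.7 ± 26.5 FPKM (SD, n = 3), with a log2 fold change of 1.47 (SE 0.26, limma adjusted p = 0.00574), and 2.11% of tested genes had a higher fold change.

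Parp9, the macrodomain partner of Dtx3l, stood at 13.5, 9.01 and 11.26 FPKM in the Sg-Con libraries and at 29.34, 26.2 and 19.68 FPKM in the Sg-C3 libraries. Every Sg-C3 library was above every Sg-Con library, with Sg-C3 replicate 3 again the lowest of its group. The mean rose from 11.3 ± 2.25 to 25.1 ± 4.93 FPKM (SD, n = 3; log2 fold change 1.09, SE 0.19, limma adjusted p = 0.00527). Dtx3l, the ligase, was the least abundant of the 5 in the Sg-Con libraries at 9.25, 7.75 and 9.06 FPKM, and it reached 23.87, 20.84 and 13.36 FPKM in the Sg-C3 libraries. Its groups did not overlap, and the order of the Sg-C3 libraries was that of Parp9 and Parp14. Its mean rose from 8.69 ± 0.817 to 19.4 ± 5.41 FPKM (SD, n = 3; log2 fold change 1.04, SE 0.20, limma adjusted p = 0.00771).

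Parp10, the Myc partner, stood at 12.81, 9.35 and 9.99 FPKM in Sg-Con and at 20.36, 20.38 and 21.16 FPKM in Sg-C3. The Sg-C3 libraries lay within 1 FPKM of each other and wholly above the Sg-Con libraries, and replicate 3 was not low. The mean rose from 10.7 ± 1.84 to 20.6 ± 0.456 FPKM (SD, n = 3; log2 fold change 0.90, SE 0.12, limma adjusted p = 0.00298). Parp12, the zinc finger member, stood at 22.26, 17.56 and 16.93 FPKM in Sg-Con and at 24.27, 21.25 and 23.2 FPKM in Sg-C3. Here Sg-Con replicate 1 was above Sg-C3 replicate 2, so the groups overlapped. The means were 18.9 ± 2.91 and 22.9 ± 1.53 FPKM (SD, n = 3), and the log2 fold change of 0.27 had a 95% interval of -0.02 to 0.56 (limma adjusted p = 0.11). Parp12 was called higher without Sg-Con replicate 1 (log2 fold change 0.39, adjusted p = 0.0372), after quantile normalization (0.37, adjusted p = 0.0396) and after median-ratio scaling (0.43, adjusted p = 0.0259). For 4 of the 5 members the 3 Sg-C3 values lay above the 3 Sg-Con values, as for 16.2% of tested genes, and for 0 members they lay below, as for 41.4%.

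**Figure D1:**
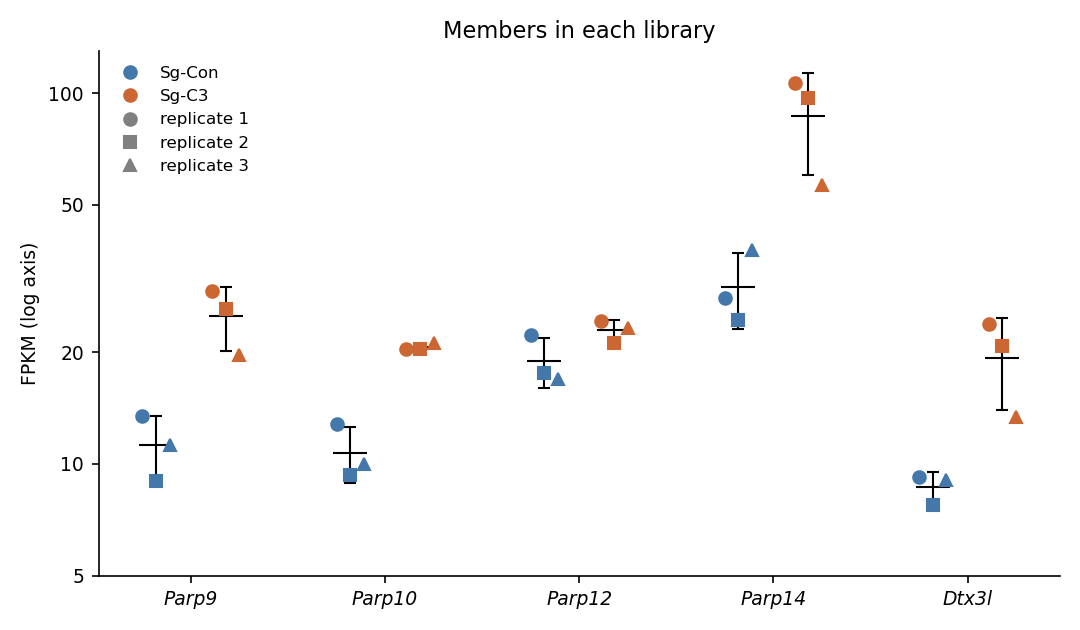
FPKM (log axis) of the 5 members in each of the 6 libraries, with colours for the group and symbols for the replicate. Horizontal bars and whiskers are the mean and SD of 3 libraries. Groups are apart for Parp9, Parp10, Parp14 and Dtx3l and overlap for Parp12, and the Sg-C3 triangle (replicate 3) is the lowest of its group for Parp9, Parp14 and Dtx3l.

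**Figure D2:**
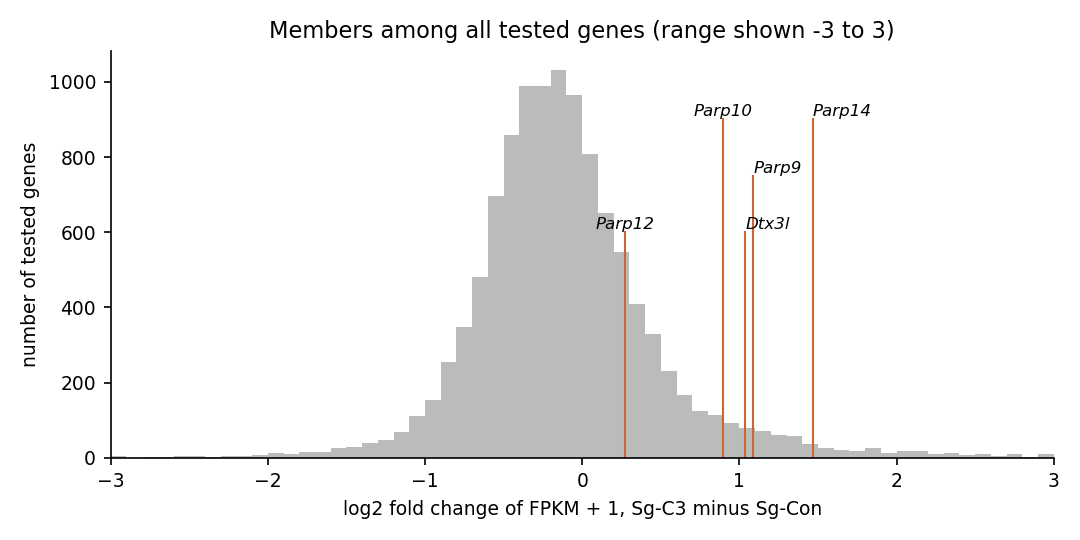
Histogram of log2 fold changes (Sg-C3 minus Sg-Con, of FPKM + 1) of tested genes between -3 and 3, with the number of genes on the vertical axis and lines at the 5 members. Parp14 lies at 1.47, Parp9 at 1.09, Dtx3l at 1.04, Parp10 at 0.90 and Parp12 at 0.27, to the right of the median of -0.16.

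Order of levels differed between the groups. In Sg-Con, Parp14 was followed by Parp12, and then by Parp9, Parp10 and Dtx3l, at means of 11.3, 10.7 and 8.69 FPKM. The values of Parp14 and Parp12 did not overlap there, nor did those of Parp12 and Parp9, while Parp9 overlapped both Parp10 and Dtx3l. In Sg-C3, Parp14 was followed by Parp9, Parp12, Parp10 and Dtx3l at means of 25.1, 22.9, 20.6 and 19.4 FPKM, and the values of Parp9 overlapped those of Parp12, Parp10 and Dtx3l. The 5 genes together summed to 85.9, 68.1 and 85 FPKM in Sg-Con and to 204, 186 and 134 FPKM in Sg-C3. Parp14 made up 32.7%, 35.8% and 44.4% of that sum in Sg-Con and 52.1%, 52.2% and 42.3% in Sg-C3, so its shares overlapped in 1 library of each group. Parp12 made up 25.9%, 25.8% and 19.9% in Sg-Con and 11.9%, 11.4% and 17.3% in Sg-C3, lower in all 3 Sg-C3 libraries.

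Ratios within a library do not depend on its scaling, and 10 ratios between the 5 members were computed. An exact two-sided permutation test over the 6 libraries cannot give a p below 0.1, so no ratio could pass, and each is given as a description. Parp9/Dtx3l, the ratio of the adjacent partners, was 1.46, 1.16 and 1.24 in Sg-Con and 1.23, 1.26 and 1.47 in Sg-C3. Its groups overlapped throughout, with a log2 difference of 0.04 (exact permutation p = 0.7). Parp14/Dtx3l was 3.04, 3.15 and 4.17 in Sg-Con and 4.46, 4.65 and 4.24 in Sg-C3, with no overlap but with Sg-Con replicate 3 close to Sg-C3 replicate 3 (log2 difference 0.38, exact permutation p = 0.1). Parp10/Parp12, the ratio of the members on other chromosomes, was 0.575, 0.532 and 0.59 in Sg-Con and 0.839, 0.959 and 0.912 in Sg-C3, so these genes moved by unequal amounts in the libraries measured (log2 difference 0.67, exact permutation p = 0.1). Groups did not overlap for any of the 4 ratios with Parp12. Parp12 fell behind Parp14 most, with Parp12/Parp14 at 0.793, 0.72 and 0.448 in Sg-Con and 0.228, 0.219 and 0.41 in Sg-C3 (log2 difference -1.21, exact permutation p = 0.1). Of the other 6 ratios 5 overlapped between the groups.

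**Figure D3:**
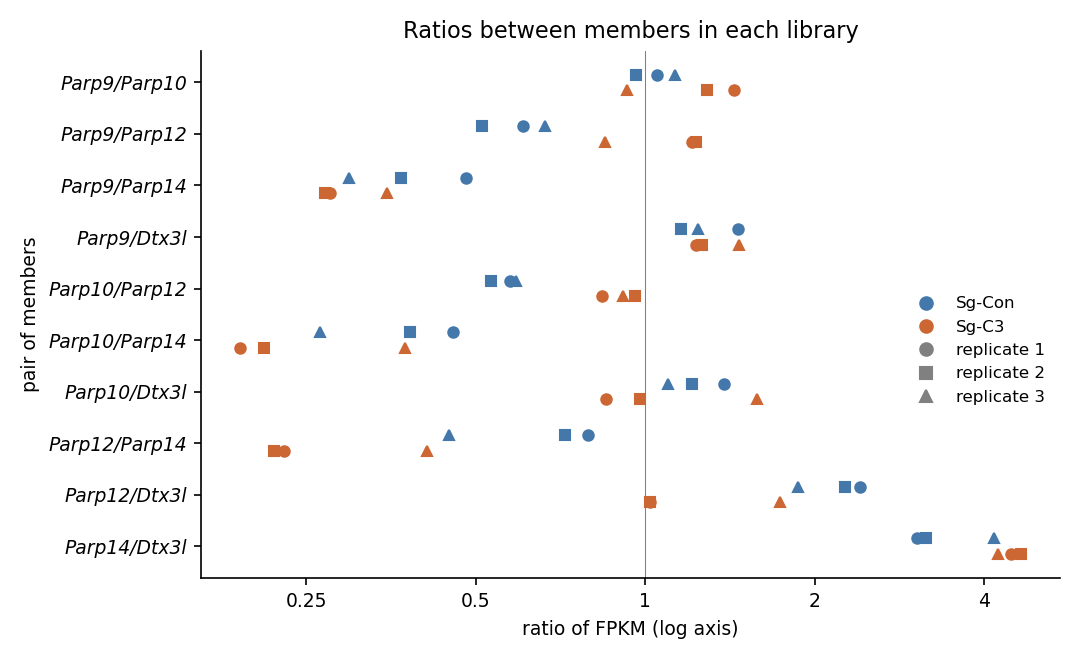
Ratio of FPKM (log axis) for the 10 pairs of members in each library, coloured by group, with symbols for the replicate. Parp9/Dtx3l overlaps between the groups from 1.16 to 1.47, and the 4 ratios with Parp12 and Parp14/Dtx3l do not overlap.

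Within the groups, the 3 genes of chromosome 16 varied together in Sg-C3, and Parp10 and Parp12 varied little there. Sg-C3 replicate 3 lay below its group mean by -0.32 for Parp9, -0.47 for Dtx3l and -0.55 for Parp14 on the log2 scale, and at 0.03 and 0.02 for Parp10 and Parp12. The log2 SD of Parp14 in Sg-C3 (0.49) was larger than that of 96.4% of tested genes and that of Dtx3l (0.41) than 94.7%, while that of Parp10 (0.03) was larger than only 3.25%. In Sg-Con the pattern differed: replicate 2 was below the group mean for all 5 members, by -0.09 to -0.28, and replicate 1 was the highest library for Parp9, Parp10, Parp12 and Dtx3l but not for Parp14. Summed neutrophil markers had the same order as the chromosome 16 genes in Sg-C3, at 1318, 698.1 and 385.6 FPKM in replicates 1, 2 and 3. So did the NK and cytotoxic sums (38.35, 37.67 and 31.24 FPKM), while the macrophage sums had the reverse order (9176, 10340 and 11400 FPKM). Sums of the other marker lists had neither order, and the part of any of these cells was not tested. Sg-C3 replicate 3 was the lowest of its group for 19 of 25 type I interferon targets and 8 of 20 interferon gamma targets, beside 55.2% of all genes called higher. Sg-C3 replicate 3 and Sg-Con replicate 3 also carry titles of another style than the other 4 libraries. Their correlation was the highest between groups (r = 0.974). It was hardly above that of Sg-C3 replicate 3 with Sg-Con replicate 1 (0.972), a library of the usual title style. With Sg-Con replicate 2 it was 0.961, and pairs without Sg-C3 replicate 3 lay from 0.945 to 0.965. What the style stands for is not given by the labels, and its part in this order was not tested. With it as covariate, Parp14, Dtx3l, Parp9 and Parp10 were still called (limma adjusted p = 0.0121, 0.0116, 0.0099 and 0.00826). Without this Sg-C3 replicate the log2 fold changes of Parp14, Dtx3l and Parp9 were 1.75, 1.27 and 1.25.

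**Figure D4:**
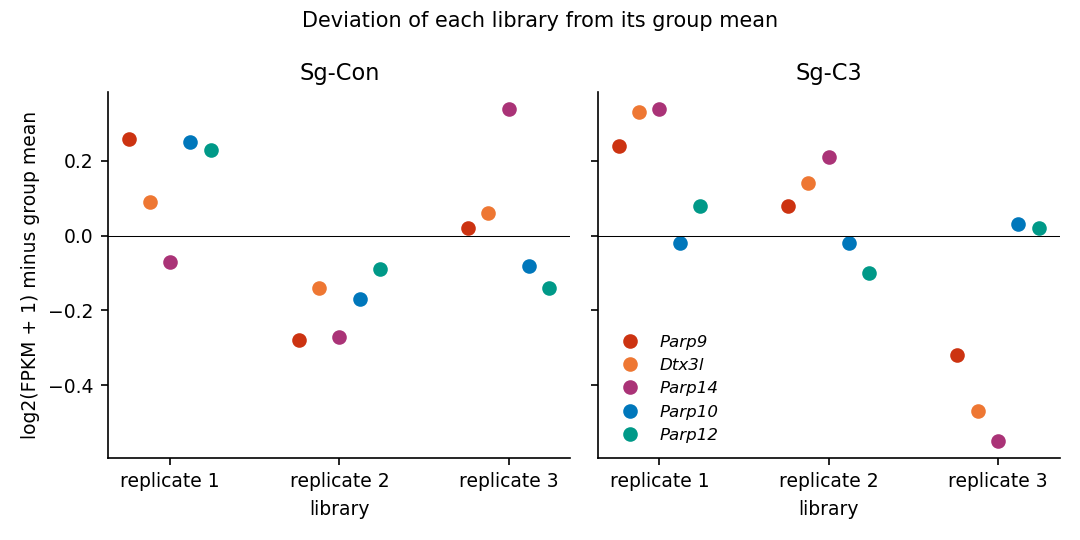
Deviation of log2(FPKM + 1) from the mean of its group (vertical axis) for the 5 members in each library (horizontal axis), with Sg-Con on the left and Sg-C3 on the right. In Sg-C3 replicate 3, Parp9, Dtx3l and Parp14 lie at -0.32, -0.47 and -0.55 while Parp10 and Parp12 lie near 0.

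Beside the chromosome 16 members, 5 protein-coding neighbours were measured and 4 tested. Of these 4, 0 were higher and 1 lower, beside 12.7% and 31.7% of all tested genes. Neighbours were chosen after the members' values were seen, up to 3 on each side. Hspbap1, next to Parp14, stood at 0.94, 1.05 and 1.1 FPKM in Sg-Con and 2.26, 1.75 and 1.04 FPKM in Sg-C3 and did not pass (log2 fold change 0.38, adjusted p = 0.122), nor did Dirc2 (0.38, adjusted p = 0.155) or Kpna1, an importin gene on the Parp9 side (-0.19, adjusted p = 0.105). Fam162a fell from 42.2 ± 2.13 to 27.3 ± 2.9 FPKM (SD, n = 3; log2 fold change -0.61, limma adjusted p = 0.00505), and Wdr5b was below the filter. Beside Parp10, the cytoskeletal linker gene Plec fell (-1.52, adjusted p = 0.00203) and Grina rose (0.50, adjusted p = 0.0164). Smpd5 did not pass (-0.27, adjusted p = 0.317), and Spatc1 was below the filter. Beside Parp12, the adjacent genes Tbxas1 and Kdm7a did not pass (both -0.15, adjusted p = 0.351 and 0.283). Farther out Rab19, at means of 1.04 and 2.28 FPKM, was higher (0.68, adjusted p = 0.0199) and Slc37a3 lower (-0.37, adjusted p = 0.0483). Hipk2 did not pass (-0.13, adjusted p = 0.426), and Clec2l was below the filter. Calls of neighbours were not rerun under the alternatives described below.

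Other PARP genes went both ways. Of the 12 other family members, all measured and tested, 1 was higher and 4 were lower (beside 12.7% and 31.7% of all tested genes), with a median log2 fold change of -0.06. Tiparp, a single-unit enzyme gene induced by the aryl hydrocarbon receptor, was the higher one, at 57.4, 69.53 and 97.46 FPKM in Sg-Con and 196.95, 190.78 and 128.54 FPKM in Sg-C3. It was more abundant than Parp14 in every library, and Sg-C3 replicate 3 was again the lowest of its group (log2 fold change 1.20, SE 0.23, limma adjusted p = 0.00739). Zc3hav1, an antiviral zinc finger gene related to Parp12, stood at 50.48, 62.16 and 76.47 FPKM in Sg-Con and 92.51, 75.24 and 62.67 FPKM in Sg-C3. Those values overlapped (log2 fold change 0.28, 95% interval -0.16 to 0.72, adjusted p = 0.248).

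The 3 PARP genes known for responding to DNA breaks were lower. Parp1 fell from 31.4 ± 6.56 to 15.3 ± 4 FPKM, Parp2 from 12.4 ± 0.832 to 7.99 ± 1.52 FPKM and Parp3 from 8.41 ± 0.868 to 6.15 ± 0.445 FPKM (SD, n = 3; log2 fold changes -0.998, -0.58 and -0.39, limma adjusted p = 0.0088, 0.0145 and 0.0255). Parp16, the family member of the endoplasmic reticulum, fell from 1.58 ± 0.108 to 0.9 ± 0.105 FPKM (-0.44, adjusted p = 0.016). Parp3 was not called on leaving out replicate 2 or 3 of Sg-Con or replicate 1 or 2 of Sg-C3 (adjusted p = 0.0748 to 0.0852), after quantile normalization (0.136) or after median-ratio scaling (0.116), and Parp16 was not called without the third Sg-Con library (0.0519) or the second Sg-C3 library (0.0514). The lower PARP genes numbered 2 on leaving out either of these libraries. The other 6 that did not pass were the tankyrase genes Tnks and Tnks2 (-0.01 and -0.10), Parp4 (-0.02), Parp6 (-0.23), Parp8 (0.16) and Parp11 (0.08). Parp11 stood at 1.57 to 2.55 FPKM in Sg-Con and 1.86 to 2.97 FPKM in Sg-C3.

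Of the 3 other Deltex genes measured, all tested, 1 was higher, beside 12.7% of all tested genes. Dtx2 stood at 15.61, 19.61 and 26.31 FPKM in Sg-Con and 44.43, 37.46 and 29.4 FPKM in Sg-C3 (log2 fold change 0.84, SE 0.21, limma adjusted p = 0.0181). Its call was lost on leaving out replicate 1 or 2 of Sg-C3 (adjusted p = 0.0627 and 0.0611). Dtx4 and Dtx3 did not pass (0.41 and -0.03, adjusted p = 0.159 and 0.827).

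Genes that remove ADP-ribose or read it were lower or not called. Of 6 measured removal enzymes 5 were tested, 3 of them lower and 0 higher, beside 31.7% and 12.7% of all tested genes. Adprh, an ADP-ribosylarginine hydrolase gene, fell from 50.2 ± 4.32 to 38.5 ± 0.262 FPKM, the macrodomain hydrolase gene Oard1 from 6.28 ± 0.651 to 4.52 ± 0.37 FPKM and its relative Macrod1 from 5.83 ± 0.897 to 4.29 ± 0.0608 FPKM (SD, n = 3; log2 fold changes -0.37, -0.40 and -0.36, limma adjusted p = 0.0163, 0.0271 and 0.0487). After median-ratio scaling none of these 3 was called (adjusted p = 0.129, 0.1 and 0.2), and the lower genes numbered 0 on leaving out replicate 1 or 2 of Sg-Con or replicate 2 of Sg-C3, and 1 on leaving out replicate 1 of Sg-C3. Adprh was lost without the first 3 of these (0.0507 to 0.0548), Oard1 without all 4 (0.0708 to 0.0944), and Macrod1 without these 4 or Sg-C3 replicate 3 (0.0872 to 0.146). Over all 15 settings Adprh lost its call in 4, Oard1 in 7 (quantile normalization 0.125 and title style 0.052 among them) and Macrod1 in 11 (up to 0.287, after quantile normalization). Parg, which degrades chains, and Adprhl2, which removes units from serine, did not pass (-0.14 and -0.23, adjusted p = 0.295 and 0.277), and Macrod2 was below the filter at 0.2 FPKM or less. Of 5 other readers, Gdap2, which holds a macrodomain, was lower (-0.37, adjusted p = 0.0265). It was not called on leaving out replicate 2 or 3 of Sg-Con or any 1 library of Sg-C3 (0.0518 to 0.0871), after quantile normalization (0.175), after median-ratio scaling (0.137) or with the title style as covariate (0.0531). H2afy, H2afy2, Rnf146 and Aplf were not called (-0.13, -0.26, -0.03 and 0.05).

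**Figure D5:**
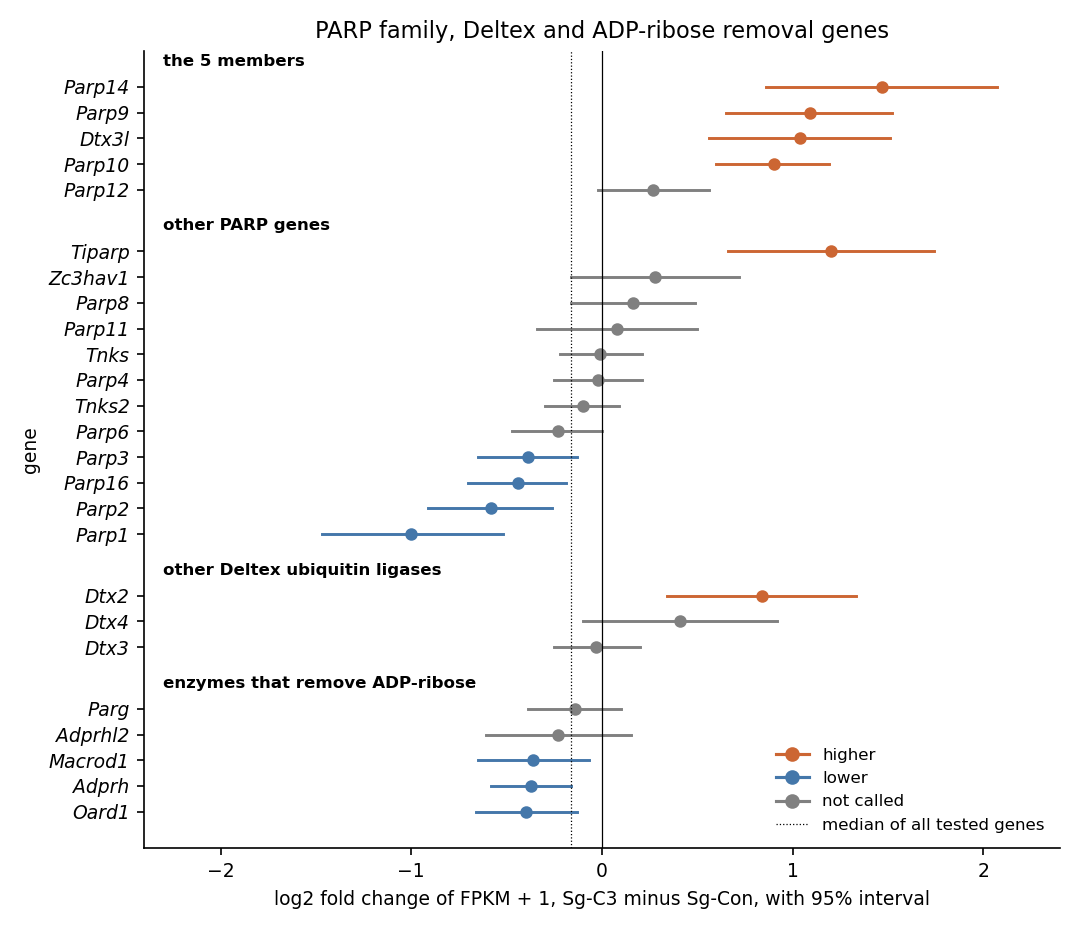
Log2 fold changes (Sg-C3 minus Sg-Con, of FPKM + 1) with 95% intervals from limma for the 5 members, 12 other PARP genes, 3 other Deltex genes and 5 ADP-ribose removal genes, coloured by call. Parp14, Tiparp, Parp9, Dtx3l, Parp10 and Dtx2 are higher, from 1.47 to 0.84, and Parp1 is the lowest at -0.998. Removal genes lie between -0.40 and -0.14, and after median-ratio scaling none of them was called.

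NAD, the substrate of these enzymes, is made and used by a further 9 measured genes of the list. Of these, 8 were tested, 1 higher and 4 lower, beside 12.7% and 31.7% of all tested genes. Nampt, the enzyme of NAD salvage from nicotinamide, rose from 50 ± 2.88 to 87.3 ± 11.5 FPKM (SD, n = 3; log2 fold change 0.79, limma adjusted p = 0.00323). Naprt and Nmnat1, which act in NAD synthesis from nicotinic acid and in its last step, fell (-0.80 and -0.52, adjusted p = 0.0108 and 0.0101). Bst1, a surface enzyme that uses NAD, fell from 58.4 ± 11.7 to 23.3 ± 2.02 FPKM (-1.28, adjusted p = 0.00197), and Nmnat3, an enzyme related to Nmnat1, was the fourth lower gene (-0.51, adjusted p = 0.0148).

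Upstream of the members, the interferon beta gene Ifnb1 stood at 38.68, 22.75 and 24.57 FPKM in Sg-Con and 85.93, 39.2 and 46.35 FPKM in Sg-C3. Every Sg-C3 value was above Sg-Con, by a narrow margin in replicate 2, and Ifnb1 was called higher (log2 fold change 0.93, SE 0.31, limma adjusted p = 0.0465). This call was lost in 7 of 15 settings. These were leaving out replicate 2 or 3 of Sg-Con or replicate 1 or 3 of Sg-C3 (adjusted p = 0.0572 to 0.126), no filter (0.06), the robust prior (0.0581) and the title style as covariate (0.0608). Ifng was listed at 0 in the 3 Sg-Con libraries and at 1.62, 1.15 and 0.85 FPKM in Sg-C3, and was below the filter. Ifna2 and Ifna4 were below 1 FPKM in every library.

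Of the 4 receptor chains 3 were lower and 0 higher, beside 31.7% and 12.7% of all tested genes. Ifngr1, the ligand-binding chain for interferon gamma, fell from 60.3 ± 10.9 to 34.9 ± 6 FPKM (SD, n = 3; log2 fold change -0.77, limma adjusted p = 0.0108). Ifnar1 and Ifngr2 were lower by small amounts (-0.41 and -0.25, adjusted p = 0.0286 and 0.049). Their calls were lost in 7 and 10 of 15 settings. Neither was called after median-ratio scaling (0.149 and 0.401), quantile normalization (0.0562 and 0.111), with the title style as covariate (0.0516 and 0.0907) or on leaving out replicate 1 or 2 of either group, and Ifngr2 was also lost without Sg-Con replicate 3 (adjusted p = 0.0718 to 0.156 over both genes), with pseudocount 0.1 (0.0501) and with no filter (0.0553). Ifnar2 did not pass (-0.22, adjusted p = 0.0589). Of the kinases and factors of the pathway, Jak2 rose from 29.8 ± 5.34 to 107 ± 16.6 FPKM (log2 fold change 1.81, adjusted p = 0.00107), Stat2 from 13.8 ± 1.62 to 29.1 ± 4.9 FPKM (1.02, adjusted p = 0.003) and Irf9 from 25.4 ± 3.46 to 42.8 ± 10.2 FPKM (0.71, adjusted p = 0.0164; 0.0503 without Sg-Con replicate 2). Jak1 and Tyk2 did not pass (0.40 and -0.47, adjusted p = 0.0692 and 0.0627).

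Among other targets, 22 of 25 type I interferon genes and 19 of 20 interferon gamma genes were higher and 0 lower. Of all tested genes 12.7% were higher and 31.7% lower. Median log2 fold changes of the target lists were 0.94 and 1.63. The fold changes of Parp10, Dtx3l, Parp9 and Parp14 (0.90 to 1.47) lay near the first of these medians or between both. By smallest p the type I genes were Isg15, a ubiquitin-like modifier (log2 fold change 2.14), Herc6, its ligase in the mouse (0.81), Rsad2 (2.16) and Rtp4 (1.47), and the gamma genes were Cd274, which codes for PD-L1 (2.26), Gbp4 (3.14), Gbp2 (1.997) and Gbp5 (2.06), with limma adjusted p from 0.00078 to 0.00468. Of the 10 genes of the Stat6 list, all measured and 9 tested, 4 were lower and 1 higher, beside the same shares. Stat6 itself fell from 71.6 ± 7.28 to 50.9 ± 7.11 FPKM (SD, n = 3; -0.49, adjusted p = 0.0195), but was not called after median-ratio scaling (0.0797) or on leaving out replicate 1 or 2 of either group (0.056 to 0.0725). Among its interleukin-4 targets Mrc1, Chil3 and Arg1 fell (-2.41, -2.92 and -3.64, adjusted p = 0.00113, 0.0072 and 0.0109), and the chemokine gene Ccl22 rose (1.74, adjusted p = 0.00639).

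Likeness to the members was measured as the root mean square distance between centred log2 values over the 6 libraries, which all share the difference between the groups. Nearest to the mean of the 5 members were Tapbp, which codes for the peptide loading protein tapasin (distance 0.057), Ogfr (0.059), Bzw2 (0.060), Trafd1 (0.066) and the cell cycle inhibitor gene Cdkn1b (0.070). Tapbp stood at 116.85, 94 and 113.76 FPKM in Sg-Con and 233.74, 231.05 and 189.98 FPKM in Sg-C3. For single members the nearest genes were Fnbp1l for Parp9 (0.046), Rnf135 for Parp10 (0.047), Lnpep for Parp12 (0.027), the immunity-related GTPase gene Irgm1 for Parp14 (0.093) and Sp140 for Dtx3l (0.075). Among the members themselves Parp9 and Dtx3l were the nearest pair (0.121) and Parp12 and Parp14 the farthest (0.708).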

How the data were processed

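The deposited table gives 1 FPKM value per gene and library, per the file headers. Bowtie 0.12.2 and the mm8 build are named in the submitters' processing notes, and the program behind the FPKM values was not named in any source at hand. The reference strain differs from BALB/C. Library kits of TruSeq and of MGIEasy are each mentioned in the labels' protocol of every library. Replicates are numbered in accession order, which pairs nothing; in each group the library numbered 3 has a title of another style. Members and gene lists were chosen with earlier results of these data known, and list genes are named where called, or for the NAD, Stat6 and target lists by the 4 smallest p. Uncalled PARP genes, Stat6, Nmnat3, interferon genes and neighbours were named after their values were seen. The table holds no read counts. Depth was read from 438 short non-coding genes, whose values fell on whole multiples of 1 read (within 0.1 read) for 88.3% to 94.5% of values up to 8 reads once 36 bases were taken from the length, beside 20% by chance, an estimate from chosen settings. With GENCODE M21 transcript lengths, the members then rest on roughly 500 to 14060 reads per library, a counting error of 4.5% at most.

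The 11198 genes that reached 1 FPKM in 3 or more libraries were tested on log2(FPKM + 1), which understates changes of low genes, with limma 3.58.1 in R 4.3.3 (trended eBayes, no covariate). Tables and plots used Python 3.11.15, pandas 2.3.3, numpy 2.4.6 and matplotlib 3.10.9. On 10 simulated tables of the 11198 genes with 200 changed, 78.8% of 2-fold and 96.1% of 4-fold changes were found and 4.8% of calls were false. The changed genes were drawn only from those with a mean log2(FPKM + 1) above 2, with normal noise independent between genes. In the real data 44.4% of tested genes were called, most of them lower, so these rates may not carry over. Date-like symbols (23) were restored from gene identifiers with RefSeq of GRCm38, which holds 15440 of the identifiers. The alternatives were another pseudocount (0.1), no filter or a mean of 5 FPKM, quantile and median-ratio scaling, array weights, a robust prior, a covariate for how sample titles are styled, leaving out each library and, chosen after seeing the data, an adjusted p threshold of 0.1.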

Additional observations from a re-analysis of the deposited data

How the results depend on the processing

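Parp9, Parp10, Parp14 and Dtx3l were called higher under all 15 alternatives, with log2 fold changes of 0.95 to 1.25, 0.81 to 1.05, 1.30 to 1.75 and 0.87 to 1.27 and adjusted p of at most 0.0255, 0.0162, 0.0272 and 0.0348. Parp12 was called in 3 of 15, at 0.37 (quantile normalization), 0.43 (median-ratio scaling) and 0.39 (without Sg-Con replicate 1), and the cause was not tested. Over the 6 left-out libraries its fold change ranged from 0.20 to 0.39. So 4 or 5 members were called. With 1 library left out, all calls ranged from 2780 to 5062 (810 to 1423 higher, 1970 to 3639 lower), lower PARP genes from 2 to 4, lower removal genes from 0 to 3 and lower interferon receptor and signalling genes from 1 to 4; those fits have fewer samples. Over all genes 2134 were lower after median-ratio scaling. Lower removal genes numbered 1 after quantile normalization, 0 after median-ratio scaling and 1 with the title style as covariate, and lower interferon signalling genes numbered 1 with median-ratio scaling, 5 with array weights, 1 with the title style and 5 at a threshold of 0.1; the cause was not tested. No direction reversed among the members or the 40 other named genes that were rerun. Of these 40, which hold no chromosomal neighbours, 28 kept their call in every setting that tested them. Nmnat1 and Naprt, counted among these 28, were not tested with the filter at a mean of 5 FPKM. Of the 10 ratios, none moved by more than the spread between libraries, though the log2 differences of Parp9/Dtx3l (-0.04 to 0.13) and Parp10/Dtx3l (-0.42 to 0.02) changed sign on leaving out a library. No paired analysis was possible because the replicate numbers come from accession order.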
